A study of Mus musculus with 4 samples.

Results

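Cytochrome P450 genes were compared between the small intestine of wild-type mice and of mice that carry a CFLARs transgene (CFLARs Tg). The family was taken as every gene with a symbol made of Cyp and a digit, other than Cyp51, that had a probe set annotated to that gene alone. This gave 86 of the 19938 genes on the arrays, with 1 probe set per gene. The rule uses symbols and no measured value, although the family was picked for description with earlier results of these data known. The symbols of Cyp2d37-ps and Cyp4f41-ps mark pseudogenes, and the RefSeq gene table lists Cyp2d13 as a transcribed pseudogene.

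Biotin-labelled total RNA of the small intestine was hybridised to 4 Affymetrix expression arrays, and the labels give C57BL/6 as the strain of the mice. Both genotypes had 2 arrays: wild-type arrays titled XX and XY, and CFLARs Tg arrays titled XCFX and XCFY. The arrays titled XX and XCFX are called the XX-type pair and the arrays titled XY and XCFY the XY-type pair. Cflar encodes a protein that restrains caspase-8, and CFLARs is its shorter isoform. The title of the series concerns necroptotic death of gut epithelial cells and ileitis around preterm birth. What drives the transgene, how old the mice were, which stretch of intestine was taken and how many mice stand behind an array is not given in the sources used here. No other allele and no treatment is named. Spread between these arrays is what the p-values measure, and it may be technical in part. It also holds the difference between the title types.

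The deposited values were log2 expression values, with array medians of 8.31 to 8.33. Xist read 12.92 and 12.90 on the XX-type pair and 6.78 and 6.62 on the XY-type pair, so the title notation matched a sex-linked gene. Readings of Xist on the XY-type arrays and of Kdm5d, Uty and Eif2s3y on the XX-type arrays ran from 5.13 to 6.78 and served as a scale for background. Cflar read 9.34 and 9.28 in wild-type and 9.49 and 9.30 in CFLARs Tg, and these overlapping readings did not check the genotype labels (limma, adjusted p = 0.498). All 10 listed enterocyte markers were well above the background scale on every array.

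Cytochrome P450 enzymes use a heme iron, oxygen and electrons from a reductase to oxidise small lipophilic molecules. Members of the CYP1 to CYP3 families are best known for drugs and other foreign compounds, and the CYP4 family for the terminal carbons of fatty acids and eicosanoids. Other members make or break down bile acids, steroid hormones, retinoic acid and vitamin D. In the small intestine the enzymes sit mainly in the absorptive cells of the villi, where they form an early metabolic barrier to what is swallowed. Nuclear receptors and the aryl hydrocarbon receptor set much of their transcription.

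Lower expression in CFLARs Tg intestine was the only direction called among the P450 genes. Of the 86 members, 30 had a mean above the lowest 30% of genes (7.48) and entered the fit, and 13 of these 30 fell, with 0 rising. The 13 were Cyp2c23, Cyp2d26, Cyp2c68, Cyp2w1, Cyp4f16, Cyp4f13, Cyp2j6, Cyp39a1, Cyp2d22, Cyp11a1, Cyp27a1, Cyp2j9 and Cyp2c65. Their log2 differences, CFLARs Tg minus wild-type, ran from -2.12 for Cyp2c23 to -0.38 for Cyp2c65, with a median of -0.79. The share called lower was 43.3% of the fitted members, and over all 13956 fitted genes 10.9% were called lower and 8.44% higher (limma, Benjamini-Hochberg adjusted p under 0.05). In whole-tissue RNA, fewer cells that express a gene and less RNA per cell cannot be told apart.

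The median log2 difference was -0.27 over the 30 fitted members and -0.01 over all fitted genes. At an unadjusted p under 0.05, 15 of the 30 members and 5457 of the 13956 genes passed. With every gene kept in the fit, 16 of the 86 members fell, against 6.7% of all genes, and the added members were Cyp2c55, Cyp2c67 and Cyp4a10. Over all 86 members, both CFLARs Tg arrays lay below both wild-type arrays for 36 members (41.9%) and above them for 14 (16.3%), while the arrays overlapped for 36. The same shares over all 19938 genes were 31.6% and 29.2%.

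The calls depended on the arrays at hand. With an array left out, the lone array of that genotype is assumed to vary like the other genotype. With the XX or the XY wild-type array left out, 0 members were called, and 14 and 15 members passed at an unadjusted p under 0.05. With the XCFX array left out, 21 members were called, of which 17 fell and 4 rose, and the median over the fitted members was -0.44. The 4 that rose there were Cyp1b1, Cyp20a1, Cyp4f18 and Cyp4f40. When limma's treat required a log2 difference beyond 0.5, 0 members were called, and the lowest adjusted p was 0.0762, for Cyp2d26.

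**Figure D1:**
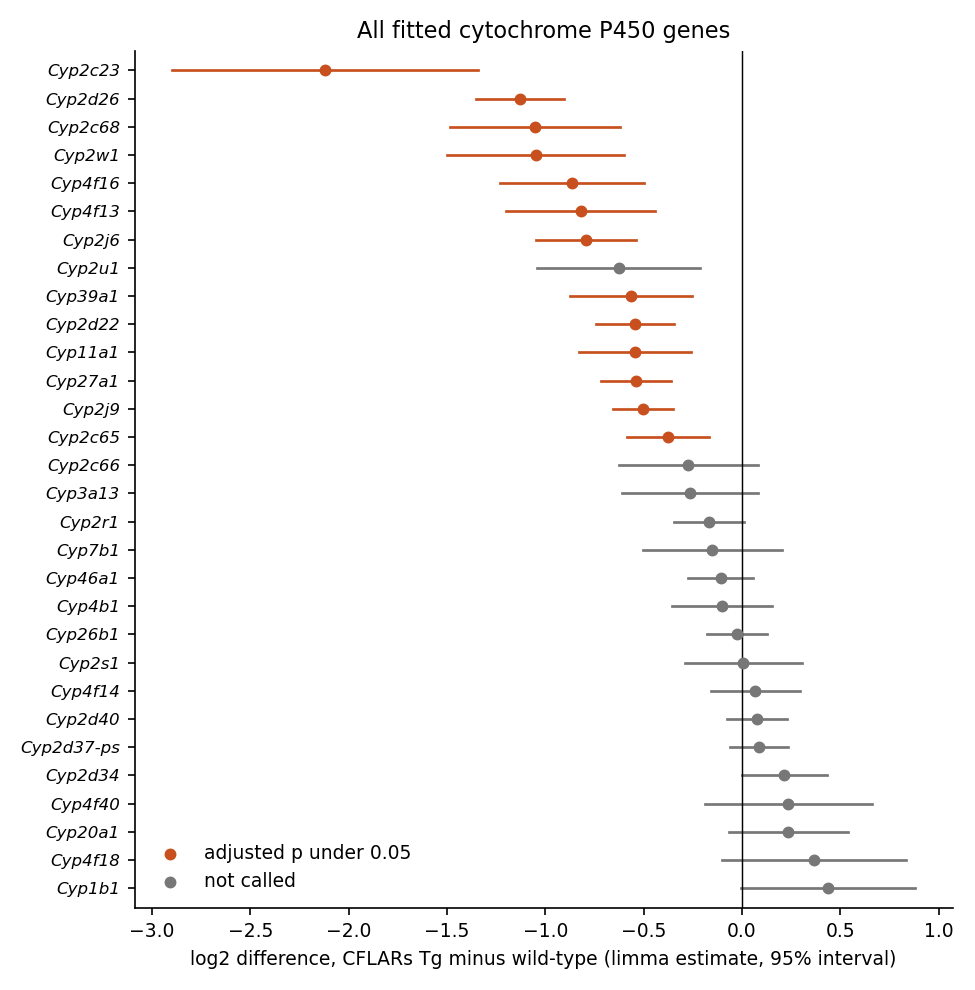
Log2 differences (CFLARs Tg minus wild-type, x axis) of the 30 fitted P450 genes (y axis), with 95% intervals from the limma fit of 2 arrays against 2. The 13 coloured genes have an adjusted p under 0.05 and all lie left of 0, from -2.12 for Cyp2c23 to -0.38 for Cyp2c65, while the grey genes run from -0.63 for Cyp2u1 to 0.44 for Cyp1b1.

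Genes of the Cyp2c subfamily were among the most strongly lowered. These enzymes turn arachidonic acid into epoxides and hydroxy acids, and many also act on drugs. Of 13 members, 4 were fitted, 3 of these fell and Cyp2c66 was not called. Both CFLARs Tg arrays were below both wild-type arrays for 8 of the 13 and above them for 0. The shares over all 19938 genes were 31.6% below and 29.2% above.

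Cyp2c23, an arachidonic acid epoxygenase, read 9.97 and 9.74 in wild-type (9.85 ± 0.16, SD, n = 2) and 8.16 and 7.31 in CFLARs Tg (7.73 ± 0.61). The genotypes were far apart, and the XCFY array was the lowest. The log2 difference was -2.12 (SE 0.30, adjusted p = 0.023), a 4.35-fold lower level. Cyp2c68 read 10.50 and 10.51 in wild-type and 9.69 and 9.22 in CFLARs Tg. The wild-type arrays nearly coincided and both CFLARs Tg arrays lay below them, with a log2 difference of -1.05 (SE 0.16, adjusted p = 0.025).

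Cyp2c65 and Cyp2c66 are neighbouring genes known from the gut. Cyp2c65 read 9.89 and 9.78 in wild-type and 9.53 and 9.39 in CFLARs Tg, which is the smallest called fall (-0.38, SE 0.08, adjusted p = 0.041). Cyp2c66 read 8.18 and 8.23 in wild-type and 8.12 and 7.75 in CFLARs Tg, with a log2 difference of -0.27 and a 95% interval of -0.63 to 0.08. The XCFX reading was close to wild-type and only the XCFY reading was clearly lower. Without the XCFX array, the difference of Cyp2c66 was -0.46, which rests on XCFY alone.

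3 Cyp2c genes with lower values showed differences above 1 on the log2 scale but were not fitted under the filter. Cyp2c55 read 7.97 and 7.80 in wild-type and 6.38 and 6.79 in CFLARs Tg, a difference of -1.30. Cyp2c70, the enzyme that makes the muricholic acids of mouse bile, read 7.95 and 8.15 against 7.28 and 6.53, a difference of -1.14. Cyp2c67 read 7.70 and 7.73 against 6.92 and 6.49, a difference of -1.01. The genotypes did not overlap in any of these, and the lowest reading lay within the background scale, where a difference understates the change in RNA. In the fit without a filter the adjusted p was 0.019 for Cyp2c55, 0.0256 for Cyp2c67 and 0.052 for Cyp2c70. Cyp2c67 and Cyp2c68 are close copies, so their probe sets may share signal and their values are uncertain as separate readings.

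The promoters of Cyp2c65, Cyp2c66, Cyp2c67, Cyp2c68 and Cyp2c70 are shown because 4 of them hold the same 9 letters, CAAAGTCCA. This is a form of the site bound by HNF4 factors. HNF4A is a transcription factor of liver and gut epithelium. RefSeq promoter windows of 300 bases on build GRCm38.p6, ending just past the start site, were found for 63 of the 86 members. The letters were searched as an exact match on both strands and are in capitals. Cyp2c66 is given as the neighbour without an exact match. Its window holds caaagtccc, which differs in the last letter only. Cyp2c65 lies at chr19:39060756-39061055, plus strand. Cyp2c66 lies at chr19:39113648-39113947, plus strand. Cyp2c67 lies at chr19:39648993-39649292, minus strand. Cyp2c68 lies at chr19:39741052-39741351, minus strand. Cyp2c70 lies at chr19:40187237-40187536, minus strand. The windows read 5′ to 3′ in the direction of the gene.
Cyp2c65: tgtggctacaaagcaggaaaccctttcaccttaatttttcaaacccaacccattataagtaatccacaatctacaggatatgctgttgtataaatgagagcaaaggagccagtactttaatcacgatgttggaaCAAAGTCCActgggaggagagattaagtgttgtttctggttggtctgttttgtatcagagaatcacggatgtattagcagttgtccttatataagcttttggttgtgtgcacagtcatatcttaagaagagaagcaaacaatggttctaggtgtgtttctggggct
Cyp2c66: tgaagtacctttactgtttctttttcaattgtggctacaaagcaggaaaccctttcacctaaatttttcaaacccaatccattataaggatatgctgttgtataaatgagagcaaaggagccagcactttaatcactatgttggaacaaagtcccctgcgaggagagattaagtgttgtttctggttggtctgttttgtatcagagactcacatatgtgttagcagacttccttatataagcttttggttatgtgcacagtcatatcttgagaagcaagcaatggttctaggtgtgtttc
Cyp2c67: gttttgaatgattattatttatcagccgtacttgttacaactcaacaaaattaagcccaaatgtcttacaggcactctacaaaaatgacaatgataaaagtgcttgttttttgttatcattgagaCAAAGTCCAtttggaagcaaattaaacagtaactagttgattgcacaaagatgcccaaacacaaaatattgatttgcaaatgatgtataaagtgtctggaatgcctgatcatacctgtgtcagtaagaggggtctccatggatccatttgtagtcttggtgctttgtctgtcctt
Cyp2c68: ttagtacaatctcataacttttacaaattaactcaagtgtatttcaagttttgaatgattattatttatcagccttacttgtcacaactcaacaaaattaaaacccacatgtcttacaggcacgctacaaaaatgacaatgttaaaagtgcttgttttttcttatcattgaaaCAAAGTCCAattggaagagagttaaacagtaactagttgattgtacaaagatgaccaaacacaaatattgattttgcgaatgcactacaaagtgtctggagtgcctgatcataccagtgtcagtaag
Cyp2c70: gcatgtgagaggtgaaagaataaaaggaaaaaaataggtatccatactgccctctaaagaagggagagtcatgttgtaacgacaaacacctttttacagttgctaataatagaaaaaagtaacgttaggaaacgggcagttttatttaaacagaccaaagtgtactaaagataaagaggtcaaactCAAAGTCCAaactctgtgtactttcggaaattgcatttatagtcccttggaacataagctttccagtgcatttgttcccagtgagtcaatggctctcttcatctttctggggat

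The letters CAAAGTCCA stood in 7 of 71 member promoters (9.86%) and in 0.475% of all 32851 promoters. They were counted from the start site at -116 in Cyp2c65, -125 in Cyp2c67, -77 in Cyp2c68 and -64 in Cyp2c70. The other 3 members that hold them were Cyp3a11, Cyp3a16 and Cyp8b1. Cyp2c23 and Cyp2c55 were not among the members found with the letters. Not every member had a window, so this need not mean that a searched window lacked them. Of the 7, Cyp2c65 and Cyp2c68 fell and 5 were not fitted. The windows are not independent of each other. Those of Cyp2c65 and Cyp2c66 matched at 256 of 329 aligned columns (77.8%) and those of Cyp2c67 and Cyp2c68 at 230 of 349 (65.9%). Gap columns are counted in these shares, also at the ends where the windows of a pair are offset. The stretches that both windows of a pair cover are therefore more alike than the percentages. Hnf4a itself read 12.28 and 12.29 in wild-type and 12.22 and 11.98 in CFLARs Tg and was not called (adjusted p = 0.226).

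Other motifs were searched the same way on both strands. The AHR core GCGTG stood in 22.5% of member promoters and 32.4% of all promoters, and the nuclear receptor letters AGGTCA in 23.9% and 16.3%. The STAT letters TTCNNNGAA stood in 5.63% and 8.3%, and the kappa B consensus in 2.82% and 5.8%. The 4 fallen members with GCGTG were Cyp2c68, Cyp2j9, Cyp2w1 and Cyp4f16. In Cyp2c70 the letters AGGTCA began at -74 and did not overlap CAAAGTCCA. A match describes letters and does not show binding.

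In the Cyp2d subfamily the called falls were those of Cyp2d26 and Cyp2d22. Cyp2d26 read 12.02 and 12.19 in wild-type (12.11 ± 0.12, SD, n = 2) and 10.92 and 11.03 in CFLARs Tg (10.98 ± 0.08). Its difference of -1.13 (SE 0.08, adjusted p = 0.011) had the lowest adjusted p of the family, and the values in both pairs were close, -1.10 and -1.16. Cyp2d22, often named as the nearest mouse counterpart of the human drug-metabolising CYP2D6, read 10.78 and 10.64 in wild-type and 10.12 and 10.21 in CFLARs Tg (-0.54, SE 0.08, adjusted p = 0.023).

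Of the other 8 Cyp2d members, 3 were fitted and not called and 5 were not fitted. Both CFLARs Tg arrays were above both wild-type arrays for 5 of the 10 Cyp2d members, and for 29.2% of all 19938 genes. The 5 include Cyp2d9 and Cyp2d12, whose wild-type means lay within the background scale. Cyp2d34 read 7.34 and 7.52 in wild-type and 7.64 and 7.65 in CFLARs Tg, a difference of 0.22 that was not called (adjusted p = 0.127). Cyp2d40 and Cyp2d37-ps differed by 0.08 and 0.09 and were not called. Cyp2d9, Cyp2d10, Cyp2d11, Cyp2d12 and Cyp2d13 were the ones not fitted, and their differences lay between -0.15 and 0.30, with Cyp2d10 and Cyp2d11 lower on average.

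Both fitted Cyp2j members fell. Cyp2j enzymes act as epoxygenases and hydroxylases of arachidonic acid, and Cyp2j6 is known from the mouse small intestine. Cyp2j6 read 10.70 and 10.74 in wild-type and 10.05 and 9.81 in CFLARs Tg (-0.79, SE 0.10, adjusted p = 0.019). Cyp2j9 read 8.12 and 8.13 in wild-type and 7.59 and 7.65 in CFLARs Tg (-0.50, SE 0.06, adjusted p = 0.018). Wild-type arrays agreed closely for both genes and both CFLARs Tg arrays lay below them. The 4 Cyp2j members that were not fitted had differences of -0.35 for Cyp2j13, -0.26 for Cyp2j5, -0.12 for Cyp2j12 and -0.03 for Cyp2j11. All 6 were thus lower on average, as were 9976 of all 19938 genes. The wild-type means of Cyp2j5, Cyp2j12 and Cyp2j11 lay within the background scale, and the arrays of Cyp2j11 overlapped.

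Single-gene subfamilies of the CYP2 family did not move together. Cyp2w1, whose human counterpart is known from fetal gut and colon tumours, read 11.45 and 11.49 in wild-type and 10.67 and 10.17 in CFLARs Tg. XCFX and XCFY were clearly lower, with a log2 difference of -1.05 (SE 0.17, adjusted p = 0.027) and a 2.07-fold lower level. Cyp2u1, a fatty acid hydroxylase, read 9.50 and 9.44 against 9.07 and 8.62. Its difference of -0.63 missed the threshold (SE 0.16, adjusted p = 0.056) and passed it with the title type as a block in the fit (adjusted p = 0.0219).

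Cyp2s1, an epithelial enzyme that the aryl hydrocarbon receptor can induce, read 10.12 and 10.17 in wild-type (10.15 ± 0.03, SD, n = 2) and averaged 10.15 ± 0.21 in CFLARs Tg. XCFX lay below both wild-type arrays and XCFY, at 10.30, above both, with a difference of 0.01 and a 95% interval of -0.29 to 0.30. Cyp2r1, a vitamin D hydroxylase, read 7.71 and 7.66 against 7.46 and 7.57 and was not called (-0.17, adjusted p = 0.141). Without the XCFY array the difference was -0.22, which rests on XCFX alone.

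Cyp4f genes split into 2 that fell and 3 fitted genes that did not. Cyp4f enzymes hydroxylate long-chain fatty acids, leukotrienes and the side chains of vitamins. Cyp4f16 read 10.56 and 10.70 in wild-type and 9.95 and 9.58 in CFLARs Tg (-0.86, SE 0.14, adjusted p = 0.026). Cyp4f13 read 11.21 and 11.11 in wild-type and 10.53 and 10.14 in CFLARs Tg (-0.82, SE 0.14, adjusted p = 0.03). In both genes the XCFY array was the lowest and the genotypes did not overlap.

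The other fitted Cyp4f genes had averages above wild-type. Cyp4f40 read 9.96 and 9.98 in wild-type and 9.97 and 10.44 in CFLARs Tg, and only the XCFY array stood apart (0.23, adjusted p = 0.342). Cyp4f14, which inactivates leukotriene B4, read 8.21 and 8.27 against 8.21 and 8.40 (0.07, adjusted p = 0.599). Cyp4f18, the leukotriene B4 hydroxylase of mouse neutrophils, read 7.80 and 7.76 against 7.89 and 8.41. Its difference of 0.37 was not called (adjusted p = 0.204) with both arrays. Without the XCFX array the difference was 0.62, which rests on XCFY alone.

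Cyp4f18 lay highest on the array on which neutrophil markers were highest. All 5 fitted neutrophil markers (S100a8, S100a9, Cxcr2, Csf3r, Ly6g) rose in CFLARs Tg, and the summed level of all 6 on the list was 9.42 and 9.56 (log2) in wild-type, 11.12 on XCFX and 12.39 on XCFY. The wild-type readings of Retnlg on both arrays and of S100a8 and Cxcr2 on the XX array lay within the background scale. The part of these cells in the value of Cyp4f18 was not tested.

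The Cyp4a genes, fatty acid hydroxylases and classic targets of the receptor PPARα, had low readings and 0 of 5 were fitted. Cyp4a12a read 7.48 and 6.82 in wild-type and 6.41 and 5.70 in CFLARs Tg, a difference of -1.10. Cyp4a12b read 7.35 and 6.55 against 6.46 and 6.08, a difference of -0.68. Both genes were higher on the XX-type array than on the XY-type array in each genotype, and as close copies they may share signal. Cyp4a10 read 6.69 and 6.53 against 5.93 and 5.71, a difference of -0.79, with an adjusted p of 0.0215 in the fit without a filter. All 4 readings of Cyp4a10 lay within the background scale. Both CFLARs Tg arrays were below both wild-type arrays for 4 of the 5, with Cyp4a14 the exception, and the median difference was -0.68. Over all 19938 genes, 31.6% had both CFLARs Tg arrays below both wild-type arrays.

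Cyp3a13 was the fitted member of the CYP3 family. It is the Cyp3a enzyme best known from the mouse intestine, and it read 11.40 and 11.37 in wild-type and 11.30 and 10.94 in CFLARs Tg. XCFX was lower by little and XCFY by more, and the difference of -0.27 (SE 0.13, 95% interval -0.61 to 0.08) was not called (adjusted p = 0.207). Without the XCFX array the difference was -0.45, which rests on XCFY alone. Cyp3a11, Cyp3a16, Cyp3a25, Cyp3a44 and Cyp3a57 were not fitted, and their readings on all 4 arrays were below 6.78, the top of the background scale.

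In the CYP1 family, Cyp1b1 had the largest positive difference of any fitted member. Cyp1b1, a target of the aryl hydrocarbon receptor known from stromal cells, read 8.48 and 8.24 in wild-type and 8.59 and 9.01 in CFLARs Tg. The XCFX reading was only just above wild-type and the XCFY reading stood apart, and the difference of 0.44 (SE 0.17, 95% interval -0.01 to 0.88) was not called (adjusted p = 0.132). Cyp1a1 and Cyp1a2, the standard induced genes of the same receptor, read between 6.06 and 6.38 on every array, within the background scale. Cyp20a1, an orphan member with no settled substrate, read 9.48 and 9.50 against 9.57 and 9.88 and was not called (0.24, adjusted p = 0.204).

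**Figure D2:**
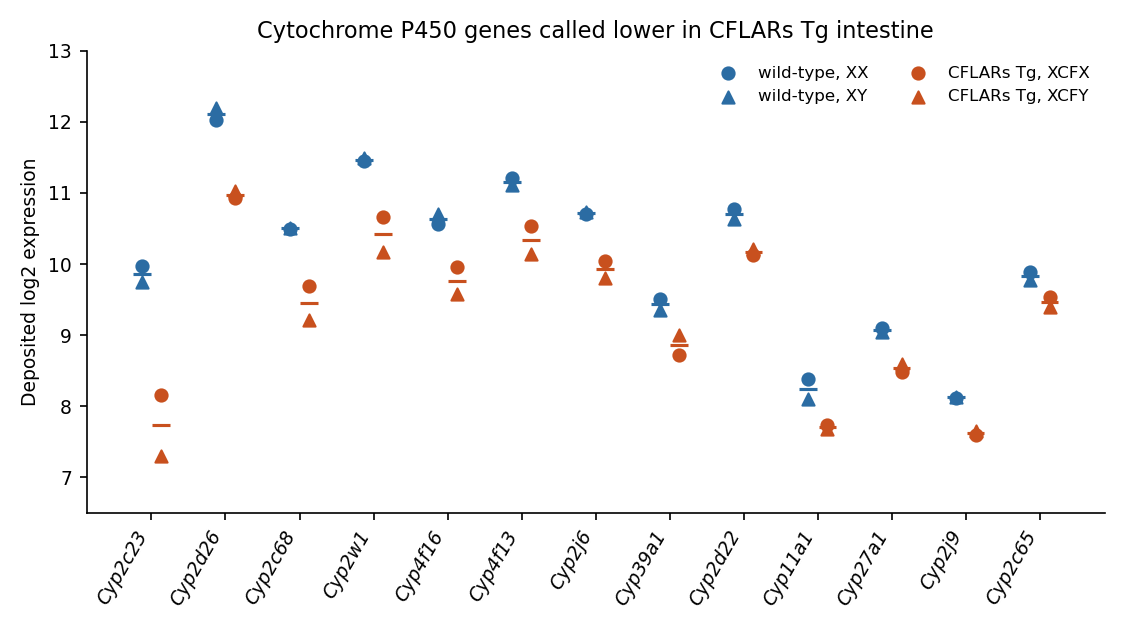
Deposited log2 values (y axis) of the 13 P450 genes called lower (x axis), with circles for XX-type arrays, triangles for XY-type arrays and bars for the means of 2 arrays. In each gene both CFLARs Tg arrays lie below both wild-type arrays, and in Cyp2c23 the gap is widest, from 9.74 for the lower wild-type array to 8.16 for the higher CFLARs Tg array.

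Among the sterol and bile acid enzymes, Cyp27a1 and Cyp39a1 fell. Cyp27a1 hydroxylates the sterol side chain and starts the alternative route of bile acid synthesis, and it read 9.10 and 9.04 in wild-type and 8.48 and 8.59 in CFLARs Tg (-0.54, SE 0.07, adjusted p = 0.02). Cyp39a1, an oxysterol hydroxylase, read 9.50 and 9.36 in wild-type and 8.73 and 9.01 in CFLARs Tg (-0.56, SE 0.12, adjusted p = 0.039). In both genes XCFX was the lowest array, unlike in the Cyp2c and Cyp4f genes that fell.

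The other 4 sterol and bile acid members were not called or not fitted. Cyp7b1, a further oxysterol hydroxylase, read 8.79 and 8.67 in wild-type and 8.40 and 8.75 in CFLARs Tg, with overlapping arrays (-0.15, adjusted p = 0.461). Without the XCFY array the difference was -0.33, and without the XCFX array it was 0.03, each with 1 CFLARs Tg array left. Cyp46a1, the cholesterol hydroxylase of neurons, differed by -0.11 (adjusted p = 0.263). Cyp7a1, the rate-limiting enzyme of bile acid synthesis in liver, read 5.88 and 5.84 against 5.72 and 5.51, within the background scale on every array. Cyp8b1, which directs synthesis to cholic acid, read 7.29 and 7.31 against 7.26 and 7.09 and was not fitted.

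Cyp11a1 was the fitted steroid hormone gene and it fell. It cleaves the side chain of cholesterol, the entry step of steroid synthesis, which the intestine is known to run locally for glucocorticoids. The readings were 8.39 and 8.11 in wild-type and 7.73 and 7.68 in CFLARs Tg (-0.54, SE 0.11, adjusted p = 0.037). The wild-type arrays differed from each other more than the CFLARs Tg arrays did, without overlap between genotypes. Cyp11b1, Cyp11b2, Cyp17a1 and Cyp21a1 were not fitted, with differences of -0.04 to 0.17. Among other steroidogenic markers, Hsd3b1 was within background on all arrays, Star read 7.20 to 7.32, and Nr5a1 was not called (0.18, adjusted p = 0.0988).

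Cyp26b1, which breaks down retinoic acid, was nearly equal in all arrays. It read 8.19 and 8.15 in wild-type and 8.12 and 8.17 in CFLARs Tg, with a 95% interval of -0.18 to 0.13 for the difference. Cyp26a1, Cyp26c1 and Cyp27b1, the last of which activates vitamin D, were not fitted and differed by -0.004 to 0.05. Cyp4b1, a further fatty acid hydroxylase, averaged 7.73 ± 0.01 in wild-type and 7.62 ± 0.17 in CFLARs Tg, with overlapping arrays (-0.10, adjusted p = 0.487).

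Of the 56 members without a fit, 34 had all 4 readings within or below the background scale. Of the 86 members, 49 had a wild-type mean above the background scale and 37 within or below it. For a gene within that scale in wild-type a fall may be hidden or understated, so values near 0 among the 37 say little. Cyp2e1, for example, read 6.29 and 6.59 in wild-type and 6.41 and 6.19 in CFLARs Tg.

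The calls were also set in the order of the genes of a subfamily along their chromosome, as RefSeq's gene table (GRCm38.p6) gives it. Distances were not used, so members at successive places need not lie close together. The Cyp2d genes that fell, Cyp2d22 and Cyp2d26, stood at opposite ends of their cluster with 8 members between them. Of these, Cyp2d34, Cyp2d37-ps and Cyp2d40 were fitted and not called, and Cyp2d9, Cyp2d11, Cyp2d12 and Cyp2d13 had wild-type means within the background scale. Cyp4f16 and Cyp4f13 were likewise separated by 4 members, of which Cyp4f40 and Cyp4f14 were fitted and not called. In the Cyp2c order, differences beyond -1 were seen at the first, seventh, eighth, twelfth and thirteenth places. Cyp2c29, Cyp2c38, Cyp2c39, Cyp2c37, Cyp2c54 and Cyp2c50 between them differed by -0.09 to 0.05, but all of these except Cyp2c37 had wild-type means within or below the background scale, where a fall may be hidden. Cyp2j6 and Cyp2j9 were adjacent.

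**Figure D3:**
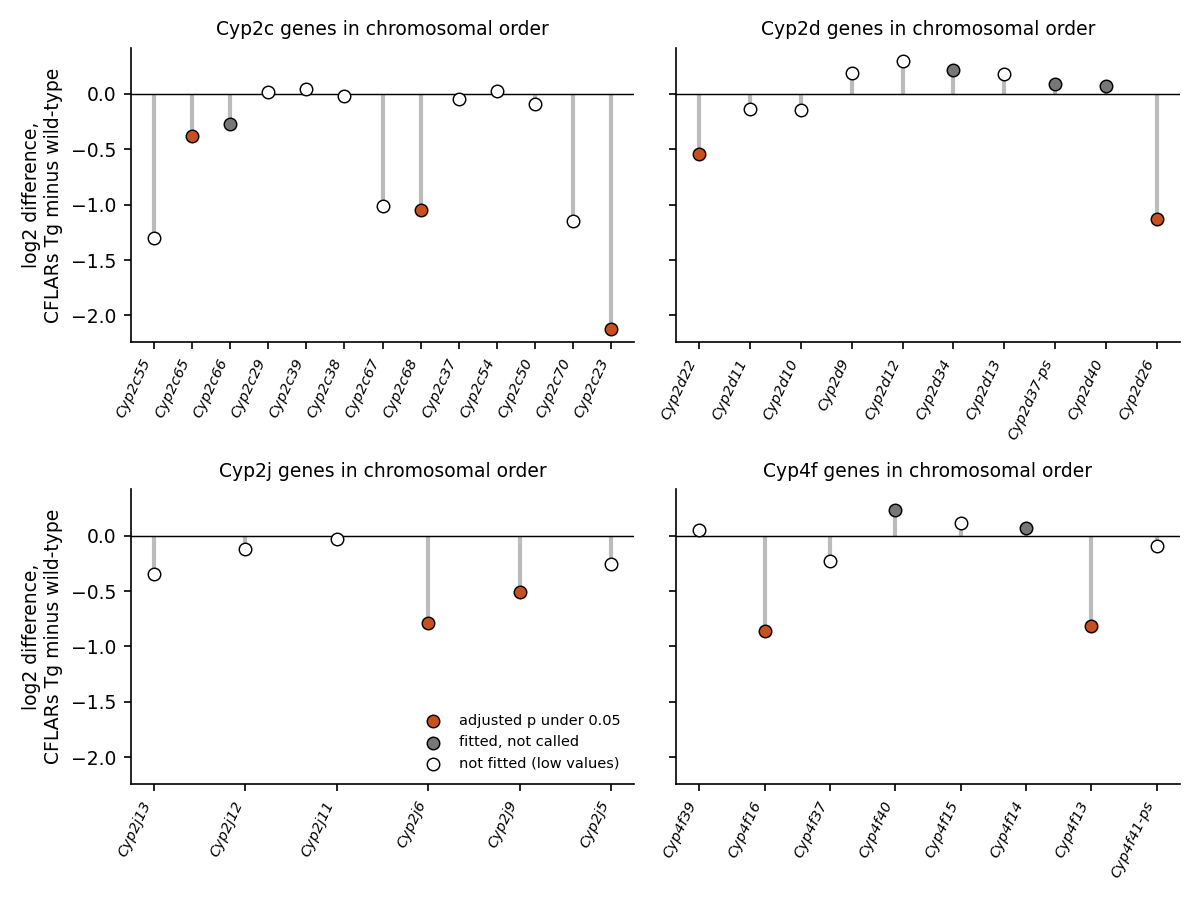
Log2 differences (CFLARs Tg minus wild-type, y axis) of members of 4 clustered subfamilies in chromosomal order (x axis, order only); filled colour marks adjusted p under 0.05, grey a fitted gene that was not called and white a gene not fitted. In Cyp2d, Cyp2d22 (-0.54) and Cyp2d26 (-1.13) flank 8 members between -0.15 and 0.30, and white genes include those within background, where a fall may be hidden.

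The pairs of arrays differed in how far the genes fell. All 13 called genes were lower in both pairs, with a median of -0.66 for XCFX against XX and -0.93 for XCFY against XY. The fall was larger in the XY-type pair for 8 (Cyp2c23, Cyp2c65, Cyp2c68, Cyp2d26, Cyp2j6, Cyp2w1, Cyp4f13, Cyp4f16) and in the XX-type pair for 5 (Cyp11a1, Cyp27a1, Cyp2d22, Cyp2j9, Cyp39a1). Cyp2w1 differed by -0.78 and -1.32 in these pairs, and Cyp39a1 by -0.78 and -0.35. Over all 86 members, 37 were lower in both pairs, and over all 19938 genes 7160 were. Each pair has 1 array per genotype, so the difference between pairs has no test.

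**Figure D4:**
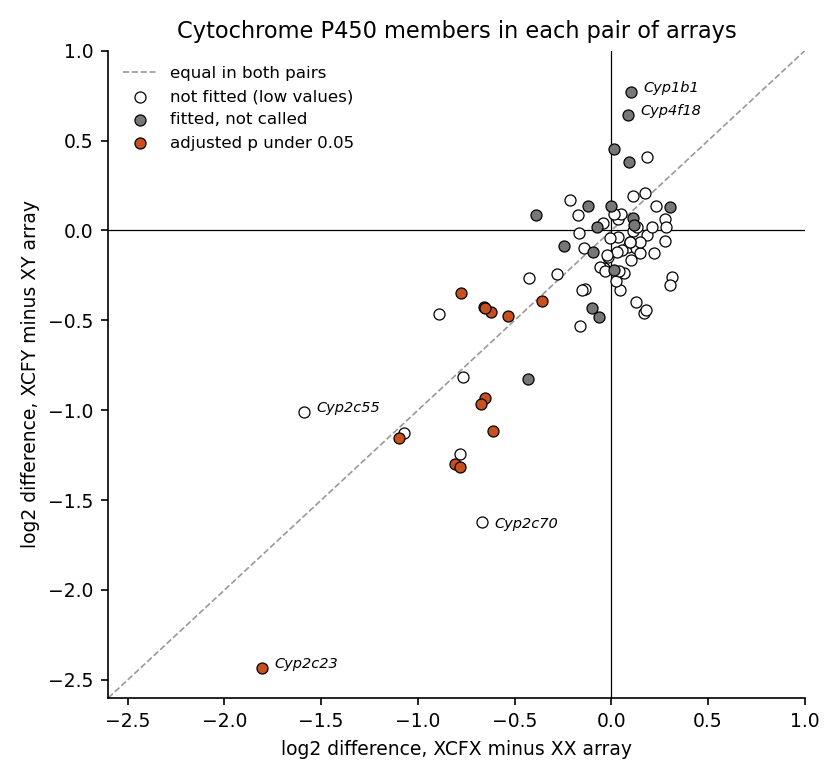
Log2 difference in the XX-type pair (XCFX minus XX, x axis) against that in the XY-type pair (XCFY minus XY, y axis) for the 86 members, with a dashed line for equal values. All coloured points (adjusted p under 0.05) lie below 0 on both axes, Cyp2c23 at -1.80 and -2.44 being the farthest, while Cyp1b1 and Cyp4f18 rise above 0 mainly on the y axis (0.77 and 0.64).

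In the main fit, genes that serve or control the P450 enzymes were called in 1 direction as well. Of 41 fitted genes on 5 lists, 14 fell and 0 rose, again beside 10.9% and 8.44% of all fitted genes. With no filter 1 gene rose, Crabp2 of the retinoic acid list (0.29, limma adjusted p = 0.0478), whose wild-type readings lay within the background scale. With the title type as a block 1 gene rose, Hmox1. Without either wild-type array 0 were called, without XCFX 26 (24 lower, 2 higher) and without XCFY 24 (22 lower, 2 higher). Por, the reductase that feeds electrons to the enzymes, had no probe set of its own.

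Among 12 fitted sensors of foreign compounds and lipids, 6 fell. Nr0b2, the bile acid induced repressor SHP, read 9.41 and 9.19 in wild-type and 7.83 and 6.79 in CFLARs Tg (-1.99, SE 0.35, adjusted p = 0.0306). Ppara, the fatty acid receptor that drives Cyp4a genes, read 9.94 and 9.85 against 9.07 and 8.74 (-0.99, SE 0.12, adjusted p = 0.0197). In both genes XCFY was the lowest array and the genotypes were apart. Nr1i3 (CAR, a drug sensor), Nr1h4 (FXR, the bile acid receptor), Nr1h3 (an oxysterol receptor) and Rxra (their common partner) fell by 0.65, 0.64, 0.62 and 0.39 on the log2 scale. Nr1i2 (PXR, the main inducer of Cyp3a genes) missed the threshold (-0.49, adjusted p = 0.0533) and passed it with the title type as a block (adjusted p = 0.032). Ahr (-0.11), Arnt (-0.22), Tiparp (-0.05), Vdr (-0.10) and Hnf4a (-0.18) were not called.

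For electron transfer and heme, 3 of 9 fitted genes fell. These were Cyb5r3, a reductase of cytochrome b5 (-0.44, adjusted p = 0.0212), and the heme synthesis genes Urod (-0.48, adjusted p = 0.026) and Fech (-0.35, adjusted p = 0.0372). Alas1, the rate-limiting step of heme synthesis, was not called (0.19, adjusted p = 0.42), and neither were Cyb5a, Cyb5b, Fdx1 and Pgrmc1. Hmox1, which degrades heme, read 9.27 and 9.28 in wild-type and 12.10 and 10.34 in CFLARs Tg. XCFX was higher than XCFY and both were above wild-type, and the difference of 1.94 was not called (SE 0.58, adjusted p = 0.0791) but passed with the title type as a block (adjusted p = 0.0279).

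In the remaining lists, 5 of 20 fitted genes fell. S100g, the calcium-binding target of vitamin D in enterocytes, read 11.22 and 11.01 in wild-type and 10.03 and 9.69 in CFLARs Tg (-1.26, SE 0.14, adjusted p = 0.0183), while Atp2b1 and Cldn2 were not called. In the retinoic acid list Dhrs3 (-0.53, adjusted p = 0.0179) and Aldh1a1 (-0.28, adjusted p = 0.0366) fell, and Aldh1a1 lost its call with the title type as a block (adjusted p = 0.0546). Rara, Rarb, Rarg, Crabp1, Rbp2, Aldh1a2 and Aldh1a3 were not called. Among other oxygenation enzymes Fmo2 (-0.34, adjusted p = 0.0303) and Fmo4 (-0.84, adjusted p = 0.0443) fell. Ephx2, the soluble hydrolase that clears P450-made epoxides, read 11.50 and 11.49 against 10.57 and 9.36 and was not called (-1.53, adjusted p = 0.0616). Fmo5 (-0.78) was not called either, and both passed with the title type as a block (adjusted p = 0.0216 and 0.026). Fmo1, Ephx1, Mgst1 and Nqo1 were not called.

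Markers of other cell types also moved between the arrays. The 10 enterocyte markers were all lower on average in CFLARs Tg, with 1 called (Slc15a1, -1.09, adjusted p = 0.0266) and a summed level of 16.79 and 16.79 (log2) in wild-type, 16.55 on XCFX and 16.08 on XCFY. The summed level of 9 hepatocyte markers was 13.98 on XX, 14.41 on XY, 13.30 on XCFX and 12.19 on XCFY. Alb read 11.47 and 12.72 in wild-type, 11.20 on XCFX and 6.57 on XCFY, the last within background, as was Ahsg there. Of 7 fitted hepatocyte markers, Ttr and Afp fell. The summed level of 4 pancreas acinar markers was 10.85, 12.97, 10.59 and 9.77 in the same order, and 0 of 3 fitted were called. Of 6 fitted macrophage markers 0 were called, with a summed level of at most 12.03 in wild-type, 12.22 on XCFX and 12.71 on XCFY. By summed level, XCFY was the array lowest in enterocyte, hepatocyte and acinar markers and highest in neutrophil and macrophage markers. The part of these cell types in the P450 values was not tested. XCFX also lay below both wild-type arrays in summed enterocyte, hepatocyte and acinar markers and above both in summed neutrophil and macrophage markers. The sums weigh the brightest genes most, and single markers differed. On XCFX, Vil1 lay above both wild-type arrays and Adgre1 and Csf1r below both. Fgg, Hpx, Cela2a and Prss2 lay between the wild-type arrays there. Without the XCFY array, the 13 called genes differed by -1.69 (Cyp2c23) to -0.305 (Cyp2c65). These values rest on 1 CFLARs Tg array.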

How the data were processed

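The authors deposited log2 expression values of 28856 probe sets on each array. How background, summarisation and normalization were handled is not given in the sources used here, and the values were taken as deposited. Probe sets were named from the platform annotation where it gave 1 symbol. The probe set with the highest mean represented a gene. Genes in the lowest 30% by mean (under 7.48) were left out as low in signal. This also left out 19 of the 49 members with a wild-type mean above the background scale, among them Cyp2c55, Cyp2c67 and Cyp2c70. The genotypes, with 2 arrays each, were set against each other by limma 3.58.1 (lmFit and eBayes, no covariates; R 4.3.3), and p-values were adjusted by Benjamini-Hochberg over all 13956 fitted genes with 0.05 as the threshold. Degrees of freedom were 2 (residual) and 2.64 (prior). The script was tested on simulated data. SDs are over 2 arrays, whose number limits the precision.

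Named genes were every member called, the 12 fitted members with the largest difference each way, the 10 with the highest wild-type mean, members with opposite pair differences of at least 0.25, the partner and regulator lists, and the label check genes. Members named from the fit without a filter, and unfitted members named to account for a subfamily, were chosen after their values were seen. The members and lists were chosen with earlier results of these data known. Alternatives were no filter, a 50% filter, quantile normalization, median centring, the median of a gene's probe sets, title type as a block, treat, and leaving out each array. Promoters came from RefSeq's GRCm38.p6 table.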

Additional observations from a re-analysis of the deposited data

Results flagged for a closer look

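The pair differences of Cyp2c54 and Cyp3a25 pointed in opposite directions, each by at least 0.25 on the log2 scale. Cyp2c54 was higher by 0.31 on XCFX than on XX and differed by -0.26 between XCFY and XY. Cyp3a25 differed by 0.31 and -0.30 in these pairs. With 1 array per genotype in each pair, the difference between the pairs was not tested. All readings of Cyp3a25 lay within the background scale, and those of Cyp2c54 did not pass 6.78.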

How the results depend on the processing

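With 2 arrays per genotype, the calls rest on few arrays. All 13 members called were called again under quantile normalization, median centring, the median of a gene's probe sets, title type as a block and no filter, and 11 of them with the lowest 50% of genes left out, where Cyp11a1 and Cyp2j9 were not fitted. These settings called 13, 13, 14, 14, 16 and 11 members. Each member had 1 probe set, so the median of probe sets left the values of the members unchanged. Only the other genes in that fit could differ, and it says little about the members. Treat against a log2 difference of 0.5 called 0 members (7 at an unadjusted p under 0.05) and 0 of the partner and regulator genes. Leaving out 1 array gave 0 to 21 members called, 0 to 26 partner and regulator genes and a median of -0.44 to -0.26; with an array left out, the lone array is assumed to vary like the other genotype. The median over the members was -0.084 with no filter and -0.56 with the 50% filter, where 86 and 17 members were fitted. Members lower in both pairs numbered 36 to 43 under the other normalizations. With the median probe set the number was 37 as in the main setting, which was fixed in advance because member values do not change there.

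Single genes that were not called changed sign with an array left out, with these lowest and highest values: Cyp2s1 -0.14 to 0.16, Cyp4b1 -0.22 to 0.020, Cyp4f14 -0.028 to 0.17, Cyp7b1 -0.33 to 0.028, Cyb5a -0.17 to 0.001, Alas1 -0.029 to 0.41, Tiparp -0.099 to 0.0061, Rarb -0.12 to 0.059, Crabp1 -0.043 to 0.083, Aldh1a2 -0.27 to 0.15, Atp2b1 -0.10 to 0.14 and Cldn2 -0.13 to 0.023. The cause of these changes was not tested.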

Other observations

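7 further probe sets were annotated to a P450 gene together with other genes and belong to no single member. The set shared by Cyp2c69, Cyp2c67, Cyp2c68 and Cyp2c40 read 10.58 and 10.64 in wild-type and 9.90 and 9.25 in CFLARs Tg. Both CFLARs Tg arrays were below both wild-type arrays, and the log2 difference was -1.03 (SE 0.22, adjusted p = 0.0505). The set shared by Cyp4v3 and Klkb1 read 7.45 and 7.54 against 7.34 and 7.47, with overlapping arrays (-0.09, adjusted p = 0.47). The set shared by Cyp4a32, Cyp4a31 and Cyp4a10 read 6.44 and 6.51 against 6.14 and 5.92, within the background scale. The set shared by Cyp2a5 and Cyp2a4 read 6.45 to 6.54 on the 4 arrays, likewise within it.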
